A study of Caenorhabditis elegans with 32 samples.

Results

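mRNAs of the polysome fraction were compared between a Caenorhabditis elegans strain whose LOTR-1 protein lacks its Tudor domain, called ΔTudor here, and the tagged wild type. The comparison takes the 4 ΔTudor and the 4 wild-type polysome libraries out of 32 libraries in all, as the strain and fraction labels name them, and it treats libraries with the same replicate number as a block. All strains have 3xFLAG and GFP fused to the start of the LOTR-1 protein. The wild type is strain DUP167 with allele sam85, and ΔTudor is strain DUP185 with allele sam102. 2 further tagged strains serve as references in places, ΔLOTR-1 (DUP207, sam117), an in-frame deletion of the gene, and ΔLOTUS (DUP217, sam113), which lacks the LOTUS domain. All animals were untreated synchronized hermaphrodites, kept at 20 °C and collected whole on day 1 of adulthood. Part of each lysate gave total RNA, called lysate here, and the remainder was run on a sucrose gradient for its polysomes. Every genotype comes as 1 strain, and an effect of the deletion and any other difference between strains cannot be told apart. No untagged strain was analysed here.

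LOTR-1 belongs to the proteins of germ granules, condensates at the outer face of germ cell nuclei where transcripts meet small-RNA machinery. Tudor domains are known as folds that bind methylated arginines, and LOTUS domains as folds that bind DEAD-box helicases of the Vasa type. The polysome fraction holds mRNAs loaded with several ribosomes, so the level of an mRNA there depends both on how much of it is present and on how well it is engaged by ribosomes.

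The 8 libraries held 26.99 to 36.2 M counts. Levels are given as CPM, the count scaled by the library size after TMM normalisation, and they compare libraries for 1 gene, not genes with each other. The gene lotr-1 itself (WBGene00008385) measured 69.2 ± 31.3 CPM in wild-type libraries against 64.8 ± 34.3 CPM in ΔTudor (SD, n = 4). Its log2 change was -0.14 (SE 0.11, adjusted p = 0.791 by edgeR's quasi-likelihood test), so the gene gives no check of the ΔTudor label. In the libraries labelled ΔLOTR-1 the gene was not lower in the polysomes, at 75.2 ± 33.1 CPM (change from the wild type 0.12, SE 0.11, adjusted p = 0.8287), whereas in the lysates it measured 64.7 ± 28.8 CPM beside 269.5 ± 116.5 CPM in the wild type. The polysome level of lotr-1 thus does not bear out that label, and the name ΔLOTR-1 stands below for what the labels call these libraries. C27C7.1, in comparison, was near 0 in both fractions of ΔLOTR-1, at 0.42 ± 0.146 CPM in the polysomes and 0.777 ± 0.41 CPM in the lysates, beside wild-type means of 43.4 and 71.6 CPM. Replicates 1 and 2 stood apart from replicates 3 and 4 in both strains. Major sperm protein transcripts made up 0.138% and 0.150% of all counts in replicates 1 and 2 of the wild type but 0.800% and 0.922% in replicates 3 and 4, with 0.220%, 0.117%, 0.845% and 1.11% in ΔTudor. Oocyte and eggshell transcripts ran the other way, at 0.998%, 0.919%, 0.307% and 0.140% in the wild type and 0.991%, 1.09%, 0.379% and 0.197% in ΔTudor. The defining markers of germ line, sperm, oocyte, intestine, muscle and neuron were found in both strains, as the label of whole animals has it, and in such bulk samples fewer cells of a type and less RNA per cell cannot be told apart.

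Removing the Tudor domain went with few changes in the polysomes, most of them upward. With edgeR's quasi-likelihood test, the replicate number as a block and Benjamini-Hochberg adjustment over 15378 genes, 30 genes rose and 5 fell at an adjusted p under 0.05. Those 35 genes are 0.228% of the genes tested, with 0.195% rising and 0.0325% falling. Of the 35, 28 changed at least 2-fold, and the median size of the called changes was 1.71 on the log2 scale, whereas the median change of all genes tested was 0.01. Of all genes tested, 8079 had a positive and 7299 a negative change. All 35 moved in 1 direction at each of the 4 replicate numbers, as did 17.4% of all genes tested. In 21 of them the 4 ΔTudor libraries did not overlap the 4 wild-type libraries, 18 lying above and 3 below, and 1.22% of all genes tested had such a gap. The number of calls rests on the block: without it 15 genes were called, all of them among the 35. Leaving out 1 library or 1 replicate number at a time gave 20 to 35 calls, and 17 of the 35 genes were called in each of those 12 fits.

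**Figure D1:**
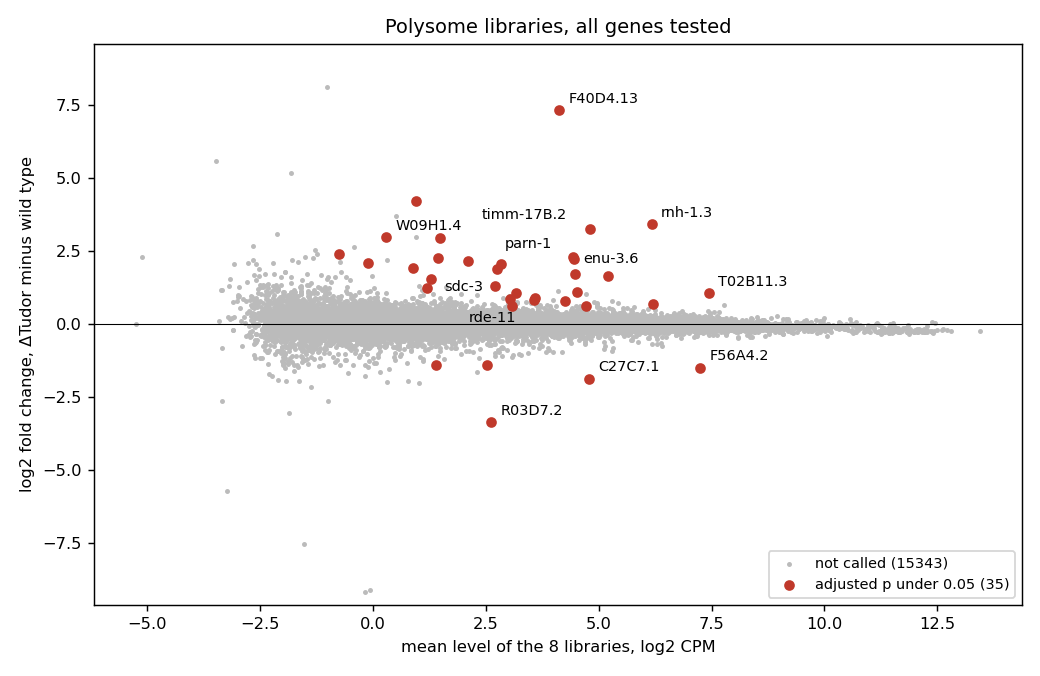
Log2 fold change in the polysomes (ΔTudor minus wild type) against the mean level of the 8 libraries (log2 CPM), 1 point per gene tested. Red points are the 35 genes with an adjusted p under 0.05, 30 above 0 and 5 below; grey points at the extremes include single histone genes, whose near-identical copies share reads.

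rnh-1.3 (WBGene00007303), which encodes an RNase H, an enzyme that cuts the RNA strand of RNA-DNA hybrids, measured 9.95, 12.8, 13.6 and 11.9 CPM in wild-type replicates 1 to 4 and 174, 160.4, 106 and 91.4 CPM in ΔTudor. The lowest ΔTudor library lay several times above the highest wild-type library. Its fitted change was 3.43 (SE 0.31, adjusted p = 2.59e-05), a 10.8-fold rise. The 4 other RNase H genes tested had log2 changes from -0.06 for rnh-1.0 to 0.22 for rnh-1.1, and none passed the test.

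parn-1 (WBGene00010734) encodes the 3′ to 5′ exonuclease that trims the ends of piRNA precursors. It measured 8.81, 7.40, 6.64 and 6.65 CPM in wild-type libraries against 48.1, 49.0, 30.3 and 18.3 CPM in ΔTudor. Every ΔTudor library stood above every wild-type library, and the change was 2.23 (SE 0.23, adjusted p = 0.00011), a 4.70-fold rise. The annotated gene overlaps frpr-15, and the sources used here do not say whether counting used the strand. Among 17 piRNA pathway genes tested, parn-1 rose and the other 16 did not pass, with a list median of -0.04. prg-1, the Argonaute that carries piRNAs, had a change of 0.03 (SE 0.12), and henn-1, the methyltransferase that acts on the trimmed 3′ end, one of -0.01 (SE 0.08). The rise was thus carried by 1 gene of that list.

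rde-11 (WBGene00023421), which works with RDE-10 in the amplification of secondary siRNAs, measured 11.5, 10.2, 5.96 and 6.98 CPM in wild-type libraries against 18.4, 18.7, 12.8 and 10.9 CPM in ΔTudor. The groups overlapped, but the ΔTudor library was the higher one at each number, and the change was 0.82 (SE 0.13, adjusted p = 0.0111). That call was lost in 6 of the 12 fits that leave out libraries, with an adjusted p of up to 0.168 without replicate 3. It was 1 of 18 genes tested for 22G-RNA amplification. The other 17 did not pass; rrf-1 and ego-1, the RNA-dependent RNA polymerases, measured 0.15 (SE 0.14) and 0.04 (SE 0.14).

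Other germ granule and small-RNA genes did not pass the test in the polysomes. The lists held 6 genes of Z granules, the granule compartment that contains LOTR-1, 18 of P granules, 19 Argonautes, 12 of the 26G-RNA pathway and 18 of nuclear RNAi and chromatin, with list medians of 0.10, 0.03, 0.14, 0.08 and 0.08. The Z granule helicase gene znfx-1 had a change of 0.22 (SE 0.11), the Argonaute gene wago-4 one of 0.07 (SE 0.15) and the Vasa-type helicase gene glh-1 one of -0.15 (SE 0.12). Of 10 genes known as targets of small RNAs, 9 had a positive change and none passed, at a list median of 0.40. Their highest value was that of bath-13, at 2.40 (SE 0.51, adjusted p = 0.094), from a mean of 0.136 CPM in wild-type libraries against 0.711 CPM in ΔTudor. In the lysates, 2 of the Z granule genes, 4 of the 26G-RNA pathway and 5 of nuclear RNAi and chromatin were called higher. So were 1 Argonaute gene and 4 of 11 small-RNA targets, among them bath-13, while 2 P granule genes were lower. For 22G-RNA amplification 6 of 18 were higher and 1 lower. Of all genes tested there, 5.7% were higher and 7.89% lower. The count of calls in that lysate fit rests on replicate 3 and on the block.

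**Figure D2:**
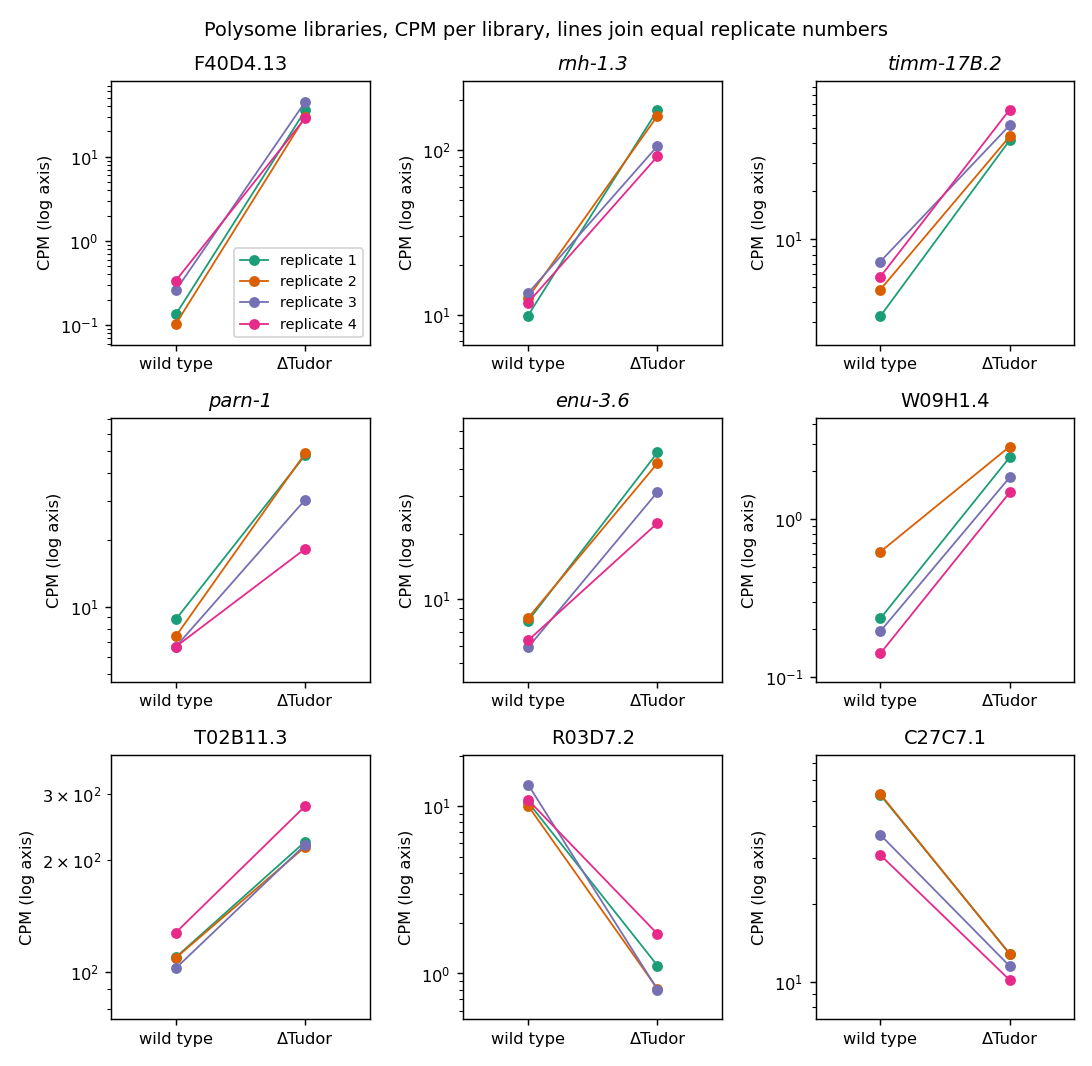
CPM in each polysome library (log axis) for 9 genes, wild type at the left and ΔTudor at the right of each panel, with a line joining libraries of the same replicate number. The lines of F40D4.13, rnh-1.3, timm-17B.2, parn-1, enu-3.6, W09H1.4 and T02B11.3 all go up and those of R03D7.2 and C27C7.1 all go down.

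A mitochondrial import gene rose as well. timm-17B.2 (WBGene00017069) encodes a Tim17 subunit of the translocase of the inner membrane. It measured 3.28, 4.82, 7.23 and 5.80 CPM in wild-type libraries against 41.7, 44.1, 51.8 and 65.0 CPM in ΔTudor, with no overlap. The change was 3.28 (SE 0.15, adjusted p = 7.73e-09), a 9.73-fold rise. Its paralog timm-17B.1, at 157 to 184 CPM in wild-type libraries against 150.4 to 172 CPM in ΔTudor, had a change of -0.06 (SE 0.10, adjusted p = 0.91). The other 18 import genes tested did not pass, and 16 of the 19 had a negative change, so the list median was -0.16.

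4 of the 5 tested genes of the enu-3 family rose. The family is named for a role in axon outgrowth, and it was singled out after its values were seen. enu-3.6 (WBGene00010477) measured 7.87, 8.12, 5.93 and 6.39 CPM in wild-type libraries against 47.5, 42.4, 31.2 and 22.4 CPM in ΔTudor, a change of 2.30 (SE 0.16, adjusted p = 1.53e-06). enu-3.5 went from 10.3 ± 2.76 to 34.5 ± 11.2 CPM (SD, n = 4) with a log2 change of 1.71 (SE 0.16, adjusted p = 2.59e-05), and enu-3.1 from 17.2 ± 1.64 to 56.7 ± 16.99 CPM with one of 1.66 (SE 0.14, adjusted p = 1.08e-05). In these 3 genes the groups did not overlap. enu-3.3 changed by 1.12 (SE 0.12, adjusted p = 0.000115); its levels of 8.42 to 19.4 CPM in the wild type overlapped those of 17.3 to 44.96 CPM in ΔTudor, though the ΔTudor library was higher at each number. enu-3.2, at 0.60 (SE 0.13, adjusted p = 0.0956), did not pass. All 4 calls held in the 12 fits that leave out libraries. How far reads of related members were divided between them was not tested.

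The largest fitted rise among the called genes was that of F40D4.13 (WBGene00009572), a protein-coding gene with no role known to the sources used here. It was near the limit of detection in the wild type, at 0.134, 0.103, 0.259 and 0.338 CPM, which are 4, 3, 8 and 12 counts. In ΔTudor it stood at 35.5, 30.0, 44.97 and 28.8 CPM. No ΔTudor library came near the wild-type range, and the fitted change was 7.34 (SE 0.23, adjusted p = 6.72e-11). Other genes that rose from a low level were W09H1.4, from 0.297 ± 0.218 to 2.16 ± 0.627 CPM with a change of 2.98 (SE 0.30, adjusted p = 6.89e-05), and WBGene00012898, from 0.19 ± 0.0629 to 3.68 ± 0.496 CPM with a change of 4.23 (SE 0.31, adjusted p = 3.47e-06). W09H1.4 overlaps the histone gene his-73 in the annotation, so its reads may be shared. Without the block W09H1.4 did not pass, at adjusted p = 0.296.

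R11A8.1 rose from 2.83 ± 0.899 to 10.7 ± 4.12 CPM, by 1.91 (SE 0.15, adjusted p = 7.64e-06). It did not pass without the block, at adjusted p = 0.207, and its annotated span overlaps Y43C5B.3. T02B11.3 (WBGene00020155), named here after its values were seen, rose at a higher level, from 109.7, 109.3, 103 and 128 CPM to 224, 217, 219 and 278 CPM. Its change of 1.06 (SE 0.09, adjusted p = 1.45e-05) was among the evenest, with ratios of 1.98 to 2.18 at the 4 numbers.

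The remaining genes that rose spread over several roles. sdc-3, a regulator of sex determination and X chromosome dosage compensation, measured 7.003, 2.96, 2.37 and 2.39 CPM in wild-type libraries against 14.7, 12.5, 6.28 and 4.06 CPM in ΔTudor. The groups overlapped through wild-type replicate 1. Its change of 1.33 (SE 0.19, adjusted p = 0.00303) did not pass without replicate 3, at adjusted p = 0.0693, nor without the block. bath-24, of a family with BTB and MATH domains, changed by 1.54 (SE 0.22, adjusted p = 0.00299) and did not pass without replicate 1, at adjusted p = 0.113. ecps-1, named after the proteasome adaptor Ecm29, changed by 0.69 (SE 0.13, adjusted p = 0.0331); it was called in 3 of the 12 fits that leave out libraries and was named after its values were seen.

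Genes called only narrowly make up much of the rest. Y23H5A.8, Y51A2B.5, Y38F2AL.12, rpl-42 and the noncoding gene Y49E10.37 had changes of 1.26 to 2.41 with adjusted p from 0.0111 to 0.0363, and each lost its call in 7 to 11 of the 12 fits. Y45F10C.6, at 1.92 (SE 0.25, adjusted p = 0.00139), lost it without replicate 3 alone, at adjusted p = 0.0661. The other identifiers that rose were WBGene00077636 and WBGene00021034, by 2.96 (SE 0.35) and 2.28 (SE 0.22). F43E2.1, Y41C4A.32, WBGene00003067, B0205.13, C27C12.1 and Y54F10AM.11, all named after their values were seen, changed by 0.62 to 1.08 and each lost its call in at least 8 of the 12 fits. The genes just inside the threshold were Y54F10AM.11 and C27C12.1, both at adjusted p = 0.0368, and those just outside were T11F9.10 and fkh-7, both at adjusted p = 0.0522.

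Of the 5 genes that fell, R03D7.2 (WBGene00010989) fell furthest. It measured 10.6, 10.1, 13.4 and 10.9 CPM in wild-type libraries against 1.11, 0.81, 0.801 and 1.72 CPM in ΔTudor, so that the groups lay far apart. The change was -3.36 (SE 0.27, adjusted p = 7.64e-06). R03D7.2 was also called lower than the wild type in ΔLOTR-1 and ΔLOTUS, with changes of -4.75 and -5.17. C27C7.1 (WBGene00007766) measured 52.7, 53.1, 36.9 and 30.9 CPM in wild-type libraries against 12.8, 12.8, 11.5 and 10.1 CPM in ΔTudor, again with no overlap, a change of -1.86 (SE 0.16, adjusted p = 1.45e-05). T03D3.5 fell from 8.37 ± 1.399 to 3.16 ± 0.642 CPM, by 1.41 on the log2 scale (SE 0.15, adjusted p = 0.000183). All 3 calls held in the 12 fits that leave out libraries.

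fbxb-7, an F-box gene, had a change of -1.41 (SE 0.18, adjusted p = 0.000789); it did not pass without replicate 1 (adjusted p = 0.143) or replicate 2 (adjusted p = 0.0621). F56A4.2, a C-type lectin gene, measured 122, 340, 194 and 229 CPM in wild-type libraries against 25.4, 72.4, 98.3 and 135 CPM in ΔTudor, a change of -1.48 (SE 0.26, adjusted p = 0.0299). The gene name table gives F56A4.2 and a second row of the counts 1 symbol, clec-209, and that row moved the other way, with 170.5 ± 46.4 CPM in wild-type libraries against 268 ± 70.4 CPM in ΔTudor (change 0.68, SE 0.19, adjusted p = 0.386). The counts of both summed to 391.7 ± 114 and 350.4 ± 93.9 CPM, a change of -0.10 (SE 0.18, adjusted p = 0.923). The fall of F56A4.2 did not hold for the summed pair, and how reads were divided between these rows was not tested.

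The lysates of the same animals ask whether these changes were already present in total RNA. In the lysates 2166 of 15939 genes, 13.6%, were called, 908 higher (5.7%) and 1258 lower (7.89%); with RLE scaling factors the split was 930 higher and 793 lower. All 35 genes called in the polysomes had the same direction in the lysate, and 31 of them were called there. The 4 that were not are F43E2.1, F56A4.2, enu-3.3 and Y54F10AM.11. F40D4.13 rose in the lysate by 6.601 (SE 0.20), rnh-1.3 by 3.30 (SE 0.28), parn-1 by 1.66 (SE 0.15) and timm-17B.2 by 1.97 (SE 0.12). R03D7.2 fell there too, with a change of -3.33 (SE 0.21), as did C27C7.1, with -1.82 (SE 0.23).

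In the other direction, 2129 of the genes called in the lysate were tested in the polysomes. There 1865 of the 2129 had the same direction as in the lysate, and 31 were called. The median absolute change of the lysate calls was 0.361 in the lysate and 0.153 in the polysomes. The median SE of a gene was 0.142 in the lysate against 0.165 in the polysomes. The lysate count rests on single replicates and on the block. It was 34 without replicate 3 and 12 without the block, so the 2 counts do not show how many genes differ between the fractions.

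**Figure D3:**
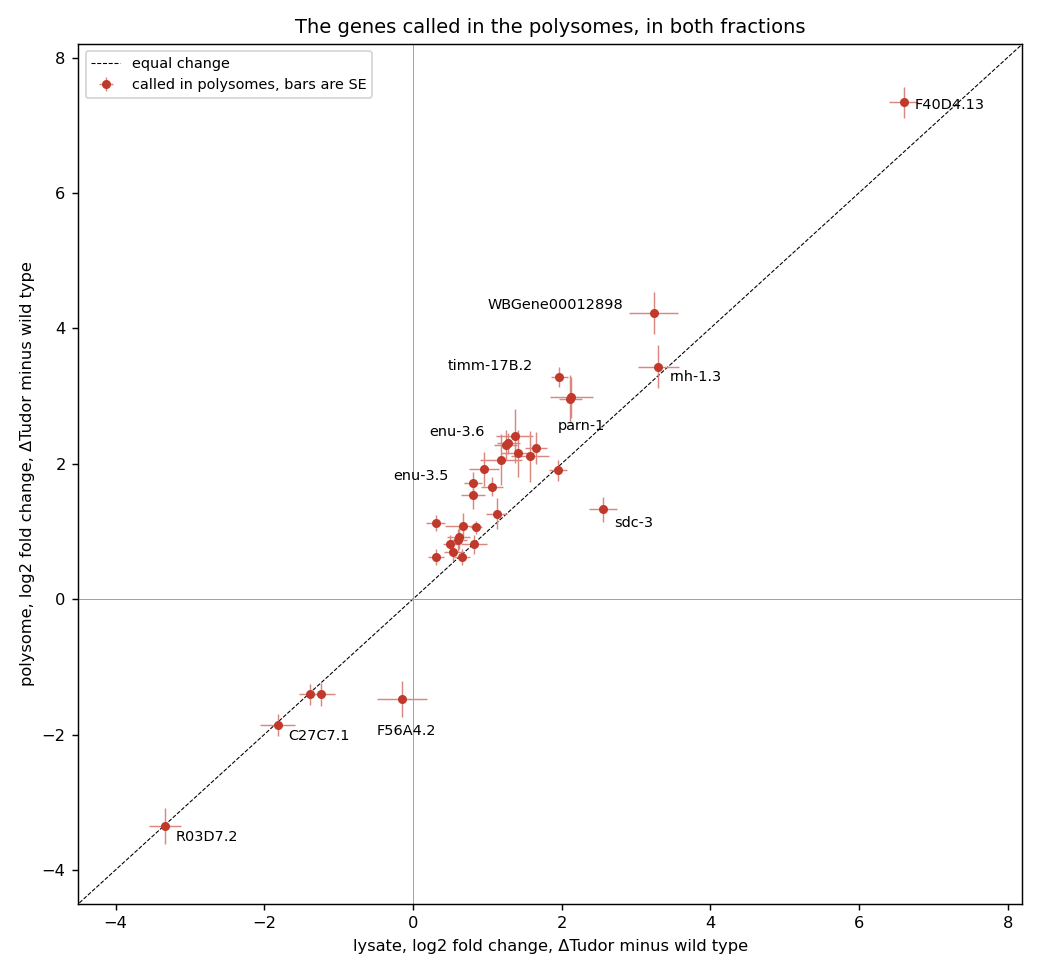
Log2 fold change (ΔTudor minus wild type) of the 35 genes called in the polysomes, in the lysate (x axis) and in the polysomes (y axis), with bars for the SE; the dashed line marks equal change. All points lie in the quadrants of equal sign, enu-3.6 and timm-17B.2 above the line and sdc-3 below it.

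A larger change in one fraction than in the other was tested through a strain-by-fraction term in a fit of all 32 libraries, with the lysate as a block. Of 16253 genes tested, 1 passed, or 0.00615%. enu-3.6 rose from 13.4 ± 1.48 to 33.5 ± 9.38 CPM in the lysates, a change of 1.28 (SE 0.15), and its polysome change exceeded that by 0.98 (SE 0.11, adjusted p = 0.00189). It did not pass when any 1 replicate number was left out, with adjusted p from 0.122 to 0.401, nor without the block. Next in order were sdc-3, whose polysome change was smaller than its lysate change of 2.56 by 1.25 on the log2 scale (SE 0.20, adjusted p = 0.0601), and timm-17B.2, whose polysome change was larger by 1.27 (SE 0.23, adjusted p = 0.165).

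Adding a term for fraction by replicate number to the strain-by-fraction fit gave 219 calls, 1.35% of the genes tested, 20 higher and 199 lower. Of the 35 genes called in the polysomes, 8 were among them. enu-3.1, enu-3.3, enu-3.5 and enu-3.6 all had a larger change in the polysomes than in the lysate in that fit, by 0.57 (SE 0.08), 0.77 (SE 0.11), 0.87 (SE 0.14) and 0.98 (SE 0.09). The polysome change was higher than the lysate change for timm-17B.2, rpl-42 and WBGene00021034 too, and lower for sdc-3. Among 18 genes of 22G-RNA amplification, it was lower for rrf-1, ego-1 and drh-3. In the lysates these 3 had risen by 0.69, 0.52 and 0.48, and in the polysomes their changes of 0.15, 0.04 and -0.04 did not pass. The polysome change was also lower in that fit for nrde-2, nrde-4, eri-7, rde-1 and math-26 of other lists. Of the histone genes 3 were higher and 3 lower, and clec-209 was higher.

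Direct contrasts with the other 2 mutants ask where ΔTudor differs from them. The contrast with ΔLOTR-1 uses the polysome libraries so labelled, in which lotr-1 itself was not lower than in the wild type. Against ΔLOTR-1, 32 genes were called (0.208%), 12 higher (0.078%) and 20 lower (0.13%) in ΔTudor, and against ΔLOTUS 47 were called (0.306%), 37 higher (0.241%) and 10 lower (0.065%). Without the block these counts were 16 and 11. Of the 35 genes, 7 differed from ΔLOTR-1 and 16 from ΔLOTUS. Set against the wild type, 24 of the 35 were called in the same direction in ΔLOTR-1 and 15 in ΔLOTUS. R03D7.2, T03D3.5, fbxb-7 and bath-24 were among those called in both. All 3 mutants were set against 1 set of wild-type libraries, with 97 genes (0.631%) called for ΔLOTR-1 and 162 (1.05%) for ΔLOTUS, and for that reason their changes are only listed side by side.

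For several of the leading genes the ΔLOTUS libraries stood near the wild type. In ΔTudor parn-1 measured 36.4 ± 14.8 CPM, beside 30.2 ± 10.8 in ΔLOTR-1 and 4.56 ± 0.456 in ΔLOTUS (CPM, SD, n = 4), and ΔTudor exceeded ΔLOTUS by 2.89 (SE 0.24, adjusted p = 1.27e-05). rnh-1.3 measured 133 ± 40.4, 115.9 ± 40.6 and 12.2 ± 4.90 CPM in the same order, with a difference from ΔLOTUS of 3.40 (SE 0.32, adjusted p = 3.09e-05). F40D4.13 measured 34.8 ± 7.38, 43.8 ± 11.5 and 0.183 ± 0.0754 CPM, with a difference from ΔLOTUS of 7.55 (SE 0.23, adjusted p = 5.73e-11). None of these 3 genes differed from ΔLOTR-1 by the test; their differences were 0.26 (SE 0.22), 0.20 (SE 0.28) and -0.31 (SE 0.14). The ΔLOTUS changes from the wild type, -0.65 (adjusted p = 0.205), 0.03 (adjusted p = 0.978) and -0.21 (adjusted p = 0.861), did not pass.

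timm-17B.2 and Y45F10C.6 lay between the other mutants. In ΔTudor timm-17B.2 measured 50.7 ± 10.5 CPM, beside 129 ± 32.4 in ΔLOTR-1 and 17.9 ± 3.71 in ΔLOTUS, below ΔLOTR-1 by 1.34 on the log2 scale (SE 0.13, adjusted p = 6.75e-05) and above ΔLOTUS by 1.51 (SE 0.14, adjusted p = 2.15e-05). Y45F10C.6 measured 2.91 ± 0.968, 12.1 ± 2.55 and 1.21 ± 0.211 CPM in the same order, below ΔLOTR-1 by 2.04 (SE 0.22, adjusted p = 0.000137) and above ΔLOTUS by 1.27 (SE 0.24, adjusted p = 0.0316).

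The rise of the enu-3 genes was not particular to ΔTudor. Against the wild type, enu-3.1, enu-3.3, enu-3.5 and enu-3.6 were also called higher in ΔLOTR-1, by 1.65, 0.91, 1.51 and 2.28. In ΔLOTUS they were called higher too, by 0.93, 0.63, 0.93 and 0.88. 3 of the enu-3 genes stood higher in ΔTudor than in ΔLOTUS by the test. In ΔTudor enu-3.6 measured 35.9 ± 11.29 CPM, beside 35.3 ± 11.26 in ΔLOTR-1 and 12.9 ± 1.74 in ΔLOTUS, which was 1.42 below ΔTudor (SE 0.15, adjusted p = 0.000131). enu-3.5 and enu-3.1 exceeded ΔLOTUS by 0.78 (SE 0.15, adjusted p = 0.0444) and 0.73 (SE 0.13, adjusted p = 0.0316), and enu-3.3, at 0.49 (SE 0.12, adjusted p = 0.154), did not pass. W09H1.4 and R11A8.1 were called against the wild type in all 3 mutants and differed between ΔTudor and the others in neither contrast.

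7 genes stood higher in ΔTudor than in both other mutants and none stood lower than both. T02B11.3 measured 235 ± 29.4 CPM in ΔTudor against 111 ± 21.8 and 105 ± 15.2 CPM in ΔLOTR-1 and ΔLOTUS, which stood near the wild-type mean of 112 CPM. Its differences were 1.09 (SE 0.09, adjusted p = 8.19e-06) and 1.16 (SE 0.09, adjusted p = 6.01e-06). C27C7.1 fell least in ΔTudor, to 11.8 ± 1.28 CPM from a wild-type mean of 43.4 CPM, against 0.42 ± 0.146 CPM in ΔLOTR-1 and 4.09 ± 0.469 CPM in ΔLOTUS. T16G12.3 measured 17.3 ± 3.78 CPM in wild-type libraries against 14.5 ± 2.44 CPM in ΔTudor (change -0.26, SE 0.19, adjusted p = 0.783), but 0.813 ± 0.208 CPM in ΔLOTR-1 and 6.93 ± 1.24 CPM in ΔLOTUS. The identifiers WBGene00012898 and WBGene00077636 were higher too, and K09H9.7 and ZC204.14, named after their values were seen, exceeded ΔLOTR-1 by 0.93 and 1.03 and ΔLOTUS by 1.64 and 1.51. sdc-3 exceeded its level in ΔLOTR-1 by 1.397 (SE 0.19, adjusted p = 0.00157), and did not pass against ΔLOTUS, at 0.90 (SE 0.18, adjusted p = 0.0578).

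**Figure D4:**
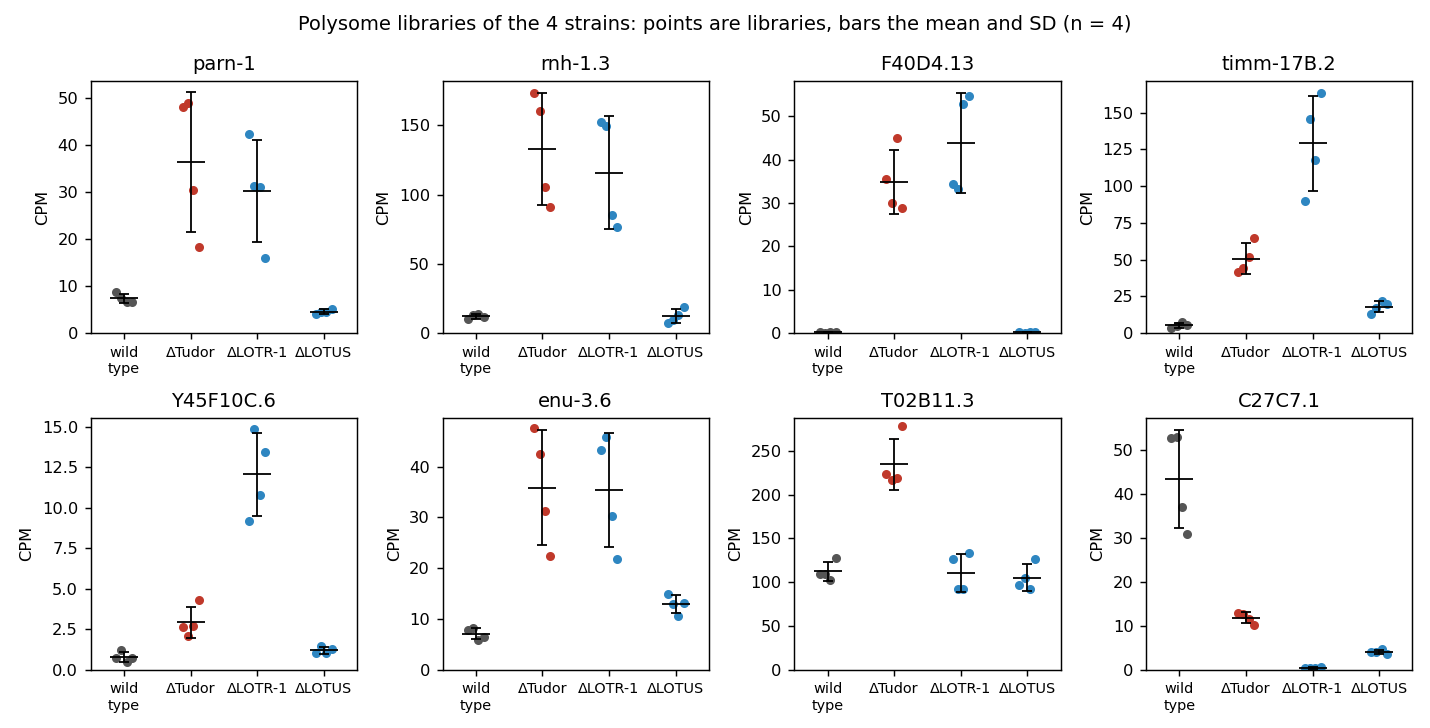
CPM of 8 genes in the polysome libraries of the 4 strains; points are single libraries, horizontal bars the mean and vertical bars the SD (n = 4). parn-1, rnh-1.3 and F40D4.13 are high in ΔTudor and ΔLOTR-1 and near the wild type in ΔLOTUS, whereas T02B11.3 is high in ΔTudor.

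Other genes stood lower in ΔTudor than in 1 of the mutants and did not pass against the wild type. F55B11.6 measured 0.0719 ± 0.0575 CPM in the wild type, 0.185 ± 0.0913 CPM in ΔTudor and 16.6 ± 2.33 CPM in ΔLOTR-1, a difference of -6.48 (SE 0.33, adjusted p = 1.87e-08), and Y39B6A.69 one of -5.98 (SE 0.36, adjusted p = 1.06e-07). ceh-20, which encodes a homeodomain cofactor of Hox proteins, measured 9.08 ± 1.79 CPM in ΔTudor, 8.60 ± 1.09 CPM in wild-type libraries against 21.3 ± 4.02 CPM in ΔLOTUS, a difference from ΔLOTUS of -1.22 (SE 0.12, adjusted p = 5.54e-05). C10C6.7 and taf-11.2 differed from ΔLOTUS by -1.31 (SE 0.24, adjusted p = 0.0316) and -1.07 (SE 0.13, adjusted p = 0.00077). Their changes from the wild type were 0.09 (SE 0.25) and 0.15 (SE 0.14). The autophagy genes atg-16.2 and epg-5 were lower than in ΔLOTUS by 1.01 (SE 0.13, adjusted p = 0.00114) and 1.00 (SE 0.12, adjusted p = 0.000666). Their changes from the wild type were -0.02 (SE 0.13) and 0.16 (SE 0.12). Without the block ceh-20 kept its call against ΔLOTUS, whereas C10C6.7, taf-11.2, atg-16.2 and epg-5 did not pass.

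Genes for ribosomes and mitochondria had small negative changes in the polysomes that did not pass gene by gene. Of 80 genes for ribosomal proteins tested, 79 had a negative change, at a list median of -0.24, and 47 had an unadjusted p under 0.05, compared with 1148 of the 15378 genes in all. Of all genes tested, 7299 had a negative change. None of the 80 genes fell by the test, and rpl-42 rose from a low level. It measured 0.469, 0.241, 3.53 and 7.66 CPM in wild-type libraries against 3.27, 1.79, 15.8 and 24.3 CPM in ΔTudor, and the groups overlapped. Its call was lost in 10 of the 12 fits that leave out libraries and without the block. The abundant rpl-2 had a change of -0.22 (SE 0.12, adjusted p = 0.686). Ribosomal protein transcripts made up 25.8%, 26.6%, 26.4% and 29.5% of all counts in replicates 1 to 4 of the wild type and 24.2%, 21.9%, 25.2% and 27.5% in ΔTudor, lower in ΔTudor at each number. In the lysates 78 of the 80 fell and rpl-42 rose, with a median of -0.40, where 7.89% of all genes tested fell and 5.7% rose. The count of calls in that lysate fit rests on replicate 3 and on the block. RLE scaling factors gave a median for the ribosomal protein genes of -0.23 in the polysomes and -0.37 in the lysates.

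Nuclear genes of the respiratory chain had a negative change in 58 of 60 cases, with a median of -0.16, and genes of mitochondrial ribosomal proteins in 66 of 67, with a median of -0.18. Both lists had 0 calls in the polysomes, and 48 and 45 of their genes fell in the lysates, where 7.89% of all genes tested did. RLE scaling factors gave 44 and 34 there. These counts come from the lysate fit whose calls in all went from 2166 to 34 without replicate 3 and to 12 without the block. The 33 proteasome genes and 37 translation factors had medians of -0.11 and -0.11 with 0 calls, and 122 of 144 cuticle collagens were negative at a median of -0.15 with 0 calls.

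Genes of the gametes had small positive changes in the polysomes. All 18 oocyte and eggshell genes had a positive change, at a median of 0.18. Of 21 sperm genes other than those of major sperm proteins 20 did, at a median of 0.14. Among all 15378 genes tested 8079 did. No oocyte, eggshell or sperm gene of these lists passed, and the replicates of 1 strain differed far more than the strains. In the lysates 8 of the 18 oocyte and eggshell genes were positive, at a median of -0.00068 that RLE scaling factors put at 0.02, and 17 of the 21 sperm genes were, at a median of 0.07. Of 270 F-box, BATH and MATH genes tested, 195 had a positive change at a median of 0.17, bath-24 rose and fbxb-7 fell. Germ line markers (12 genes, median -0.08), intestine (15, -0.03), muscle (20, -0.05), neuron (20, 0.06), vitellogenins (6, 0.01), heat shock and unfolded protein genes (15, -0.01) and genes of the intracellular pathogen response (13, 0.09) had 0 calls. Among 19 genes of deadenylation and decay, parn-1 was the single call, at a median of 0.15. Of 122 C-type lectin genes F56A4.2 was the single call. Single histone genes spanned changes of -9.18 to 8.12 with 0 calls among 62, and their near-identical copies make such values uncertain. With 30 major sperm protein genes, which are near-identical too, the median was 0.07. In the lysates 24 of 29 were negative at a median of -0.12, but 18 of 29 at a median of -0.10 with RLE scaling factors. Among all 15939 genes tested there 8077 were negative with TMM factors.

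**Figure D5:**
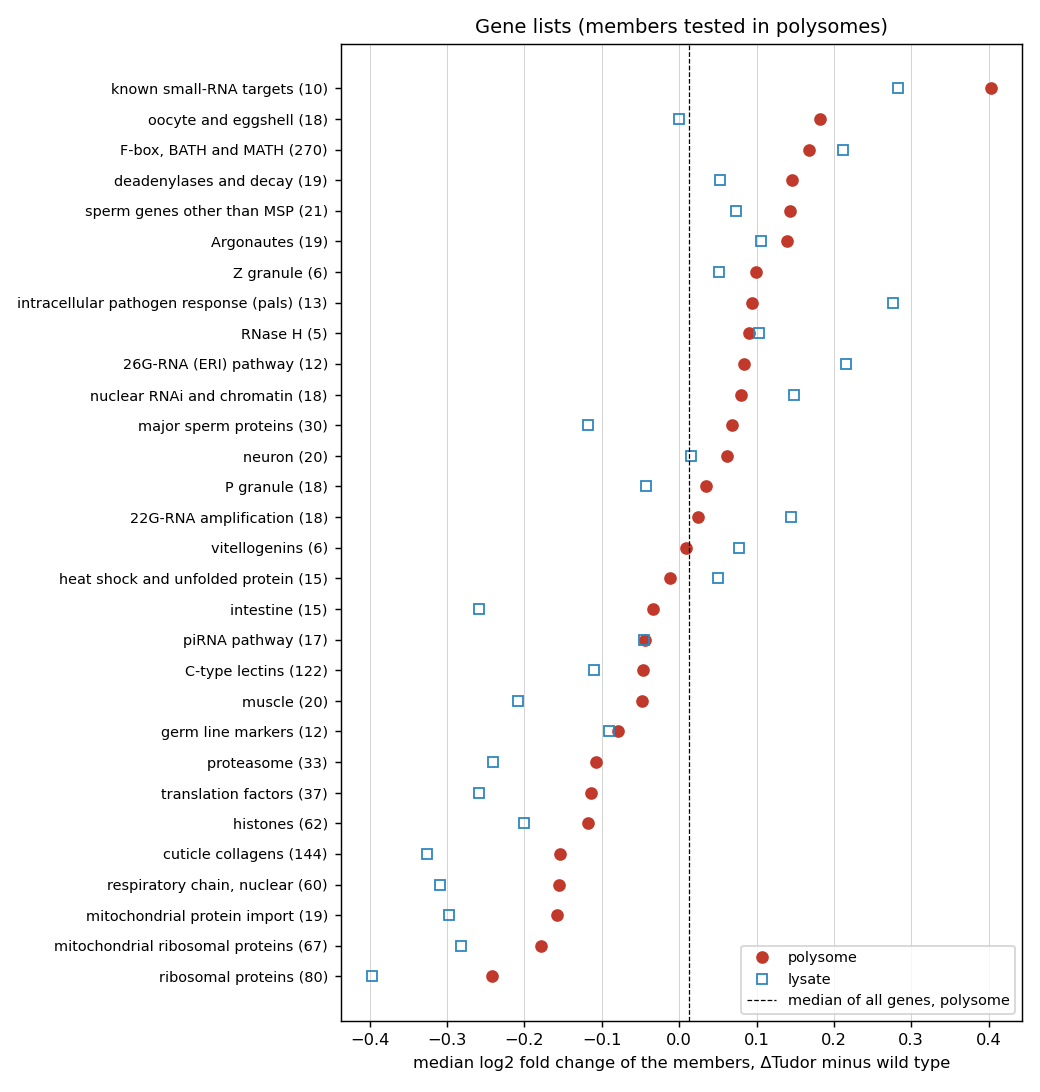
Median log2 fold change (ΔTudor minus wild type) of the members of each gene list, with the number of members tested in the polysomes in brackets; circles are polysomes, open squares lysates, and the dashed line is the median of all genes in the polysomes. Ribosomal proteins lie at -0.24 in the polysomes and -0.40 in the lysates, and oocyte and eggshell genes at 0.18 in the polysomes.

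In the annotation of assembly WBcel235, 30 of the 35 genes were found, 29 of them protein-coding and 1 noncoding. None of them lay next to another called gene. The annotated spans of 9 overlap another gene, among them parn-1, W09H1.4, R11A8.1 and Y45F10C.6, and reads of overlapping genes cannot be told apart where the strand was not used.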

How the data were processed

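RNA sequencing of polyadenylated RNA gave 32 libraries, made with a stranded kit per the labels. The authors deposited expected counts, which estimate reads per gene; the submitters' processing notes list Salmon and DESeq2 without versions. The sources used here give no genome build, annotation or strand setting for them. Of the positive values 15.3% were not whole, and all were rounded. A second deposited table, adjusted for replicates by the authors in a way not stated, was taken as a score and served as an alternative input. Of 46926 rows 2766 carried only an identifier; 44115 matched the table of gene names and 43726 that of WBcel235.

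Tests used R 4.3.3 with edgeR 4.0.16: filterByExpr, TMM factors, a quasi-likelihood fit of all 16 libraries of a fraction with strain and replicate number as terms, and adjusted p under 0.05 as a call. DESeq2 1.42.0 and limma 3.58.1 served as alternatives. The SE is the absolute log2 change over the square root of F. The fit was also run on simulated counts that gave all genes the same dispersion. That setting is simpler than these data, and no result here rests on it. CPM use TMM library sizes. The labels call the replicates biological without naming separate cultures, and p-values cover only the spread of these libraries.

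Replicate numbers come from the labels. Deviations from the group means correlated between same-numbered ΔTudor and wild-type polysome libraries with r of 0.922 to 0.966 over 7210 genes. Between differently numbered libraries r was 0.943 and 0.885 for numbers 1 and 2, and 0.900 and 0.844 for numbers 3 and 4. Between numbers 1 or 2 and numbers 3 or 4 it was negative, from -0.957 to -0.865. The values thus set replicates 1 and 2 apart from 3 and 4. Over all strains, each of the 16 polysome libraries correlated best with a library of its own number in another strain. Between ΔTudor and the wild type, however, 0.943 lies above the lowest same-numbered value. Whether the numbers pair single samples is therefore not settled. Library totals were 31.1 to 36.2 M counts in the wild type and 26.99 to 34.2 M in ΔTudor.

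Named genes are the calls, up to the 20 highest and 20 lowest, lotr-1, up to 5 highest and 5 lowest calls of each other contrast, and called members of 30 gene lists, with up to 2 abundant members of other lists; exceptions are marked as named after their values were seen. The comparison, lists and rule were chosen with earlier results of these data known. Further genes named beside a call or a list were chosen for their known role after their values were seen.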

Additional observations from a re-analysis of the deposited data

Results flagged for a closer look

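Among 98 groups of 4 libraries examined, 5 held 1 library set far apart from the other 3, which chance gives in about 1 of 20 groups. In ΔTudor replicate 4 stood apart for WBGene00012898, at 2.95 CPM below 3.85 to 4.04 CPM in the others, for WBGene00021055, at 1.17 CPM below 1.34 to 1.37 CPM, and for T02B11.3, at 278 CPM above 217 to 224 CPM. In the wild type replicate 1 stood apart for sdc-3, at 7.003 CPM above 2.37 to 2.96 CPM, and replicate 2 for B0205.13, at 4.75 CPM below 16.46 to 18.1 CPM. The change of enu-3.6 differed between the fractions, being larger in the polysomes by 0.98 on the log2 scale.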

How the results depend on the processing

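None of the 35 genes called in the polysomes changed direction in any setting run. Without the replicate block the calls went from 35 to 15 against the wild type, from 32 to 16 against ΔLOTR-1, from 47 to 11 against ΔLOTUS, from 2166 to 12 in the lysates and from 1 to 0 for the interaction; all 15 were among the 35. DESeq2 with the block gave 87, 70, 97, 2194 and 15 calls in the same order, and its 87 held all 35. In the edgeR fit the genes that lost their call without the block were W09H1.4, Y23H5A.8, Y51A2B.5, Y38F2AL.12, rpl-42, R11A8.1, enu-3.5, sdc-3, Y49E10.37 and F56A4.2. The same held for fbxb-7, rde-11, WBGene00003067, C27C12.1, ecps-1, F43E2.1, enu-3.3, Y54F10AM.11, B0205.13 and Y41C4A.32. Against the wild type there were 53 calls with no filter on low counts (3 for the interaction), 23 with a mean of at least 5 CPM, 66 from the deposited replicate-adjusted table with limma, and 22 from replicates 3 and 4 alone, compared with 34 from replicates 1 and 2. The 8 libraries of both strains gave 30 calls with the block and, as a setting added after seeing the data, 5 without it. Summing F56A4.2 with clec-209, also added then, left 34. Leaving out replicates gave 20 to 35 calls against the wild type, 22 to 28 against ΔLOTR-1, 24 to 45 against ΔLOTUS, 34 to 1859 in the lysates and 0 to 0 for the interaction. A term for fraction by replicate gave 219 interaction calls. The cause of these moves was not tested. Genes of a few counts in the wild type have folds of low precision.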
